A study of Xenopus laevis with 9 samples.

Results

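Collagen types II and IX and chondromodulin, the matrix proteins that mark cartilage and notochord, were followed in the tails of Xenopus laevis tadpoles given thyroid hormone. Members were taken by gene symbol: every probe set of the array whose platform symbol, without the suffix of the homeolog, is col2a1, col9a1, col9a2, col9a3 or cnmd. This gave 7 of 15611 probe sets, 3 for col2a1, 2 for col9a1, 1 for col9a2 and 1 for cnmd, and none was listed for col9a3. They stand for 6 genes of the 7621 that the annotation names on the array. Of the 7, 5 are listed with 1 gene (col2a1.S, col9a1.L, col9a1-b, col9a2.L and cnmd.L). The remaining 2, here called col2a1 shared probe sets A and B, are listed with both col2a1.S and col2a1.L, the copies of the gene that this tetraploid frog carries on its S and L subgenomes. A probe set designed for one homeolog can also bind the other, so the values of col2a1.S, and those of col9a1.L and col9a1-b, are uncertain as to which copy they read.

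Whole tadpoles at stage 54, a larval stage with little thyroid hormone of its own per the study's design text, were kept in FETAX, a medium for frog embryos, at 20 C, 2 per 500 ml container; one label gives a range of stages that ends at 54. They received vehicle, whose composition the labels do not give, for 48 h, or 20 nM of the active hormone triiodothyronine (T3) for 6 h or for 48 h. Each group had 3 Affymetrix arrays, each made from the RNA of 3 pooled tails, and the labels name no strain, sex or clutch. No vehicle tails were collected at 6 h, and thus 6 h of T3 and vehicle differ in hormone and in time in the container. Whole tails were extracted, so fewer cells of a type and less RNA per cell cannot be told apart.

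Collagen II forms the thin fibrils of hyaline cartilage and of the sheath around the notochord, the rod that stiffens the larval tail. Collagen IX, a heteromer of chains encoded by col9a1, col9a2 and col9a3, sits on the surface of those fibrils and links them to other matrix. Chondromodulin is a membrane glycoprotein whose released part, in mammals, restrains the growth of blood vessels into cartilage. The tadpole tail and its notochord are dismantled at metamorphosis under thyroid hormone, with collagenases among the enzymes that rise.

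After 48 h of T3, the values of all 7 probe sets were lower than in vehicle on average. Of the 6 that entered the test 5 were called lower, beside 6.04% of all tested probe sets. They were col9a1.L at 3.62-fold, col2a1.S at 3.39-fold, col9a1-b at 2.91-fold, cnmd.L at 2.42-fold and col2a1 shared probe set A at 2.12-fold. These calls were fragile: the count was 0 without the level filter, with only the 2 groups compared, and without some single arrays. After 6 h of T3, none was called in either direction. Between 6 h and 48 h of T3, all 6 tested probe sets were called lower, by 2.44-fold to 3.90-fold, beside 11.9% of all tested probe sets. A probe set was tested when at least 3 of the 9 arrays had it at or above their median, and was called when its adjusted p in limma, over all 8123 tested probe sets, was under 0.05. Of the members, col9a2.L was below that level and takes its values from a fit of all 15491 probe sets that are not controls. All levels below are log2 intensities relative to the array median, which is 0. Levels of different probe sets are not comparable with each other.

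The collagen II probe set col2a1.S lay at 3.49, 3.46 and 2.95 on vehicle arrays 1, 2 and 3, at 3.34, 3.70 and 3.05 after 6 h of T3, and at 2.66, 0.71 and 1.24 after 48 h. The T3 48 h arrays were all below the vehicle arrays, with array 1 the closest to them. The vehicle mean was 3.30 ± 0.30 and the T3 48 h mean 1.54 ± 1.01 (SD, n = 3), a log2 change of -1.76 ± 0.41 (SE, adjusted p = 0.0272 in limma). Only 0.382% of all tested probe sets had a more negative change in that comparison.

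Shared probe set A, which reads both col2a1 homeologs, lay at 4.09, 4.06 and 3.43 in vehicle, at 4.15, 4.22 and 3.81 after 6 h of T3, and at 3.50, 2.33 and 2.50 after 48 h. Here T3 48 h array 1 was above vehicle array 3, so the groups overlapped, although the change was called (-1.08 ± 0.29 SE, adjusted p = 0.0421 in limma). Shared probe set B lay at 3.73, 3.79 and 3.08 in vehicle, at 4.44, 4.28 and 3.74 after 6 h, and at 3.26, 2.57 and 2.45 after 48 h. It also overlapped between vehicle and T3 48 h, and its change of -0.77 ± 0.27 was not called (adjusted p = 0.0878 in limma).

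The changes of the 3 probe sets of col2a1 against vehicle ran from -1.76 to -0.77. Within each array, the log2 ratio of col2a1.S to shared probe set A was -0.56 ± 0.07 in vehicle and -1.24 ± 0.40 after 48 h (SD, n = 3), and that to shared probe set B was -0.24 ± 0.10 and -1.22 ± 0.63. In an exact two-sided permutation test each gave p = 0.1, the smallest that 3 arrays against 3 allow, and 0.25 after Benjamini-Hochberg adjustment over the 15 pairs of tested members. Since this test could not have passed the threshold for any pair, it does not show whether the members differ in the size of their change.

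Of the collagen IX probe sets, col9a1.L had the most negative change of all members in the main fit. It lay at 2.79, 3.13 and 2.56 in vehicle, at 2.84, 2.82 and 3.14 after 6 h, and at 2.24, 0.51 and 0.15 after 48 h. All T3 48 h arrays were below all vehicle arrays, and arrays 2 and 3 came close to the array median. The change was -1.86 ± 0.43 (SE, adjusted p = 0.0265 in limma), from a mean of 2.82 ± 0.29 to 0.97 ± 1.11 (SD, n = 3). The rank of col9a1.L changed with the fit. When 1 was added to each intensity before the logarithm, its change was -1.39, beside -1.43 for col2a1.S. Without T3 48 h array 3 it was -1.45, beside -1.61 for col2a1.S.

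For col9a1-b, which RefSeq lists on the S subgenome as a gene of its own, the values were 1.58, 1.40 and 0.81 in vehicle, 1.61, 1.31 and 1.26 after 6 h, and 0.87, -0.80 and -0.90 after 48 h. T3 48 h arrays 2 and 3 were below the array median, where a fold depends on the background correction, and T3 48 h array 1 was above vehicle array 3. The change of -1.54 ± 0.41 was called (SE, adjusted p = 0.0387 in limma). It was -0.85 when 1 was added to each intensity before the logarithm.

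The dim col9a2.L was under its array median on all arrays but one. It lay at -0.17, -0.45 and -0.60 in vehicle, at -0.39, 0.29 and -0.43 after 6 h, and at -0.87, -2.02 and -1.54 after 48 h. The T3 48 h arrays were again all below the vehicle arrays. Its change of -1.07 ± 0.29 was not called in the fit without a filter (SE, adjusted p = 0.0690 in limma). With 1 added to each intensity before the logarithm the change was -0.36, so its size rests on dim values.

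Chondromodulin, cnmd.L, lay at 3.62, 3.84 and 2.90 in vehicle, at 4.12, 3.87 and 3.77 after 6 h, and at 2.90, 1.74 and 1.89 after 48 h. The highest T3 48 h array and the lowest vehicle array differed by less than 0.01. The change was -1.28 ± 0.31 (SE, adjusted p = 0.0316 in limma), from 3.46 ± 0.49 to 2.18 ± 0.63 (SD, n = 3).

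**Figure D1:**
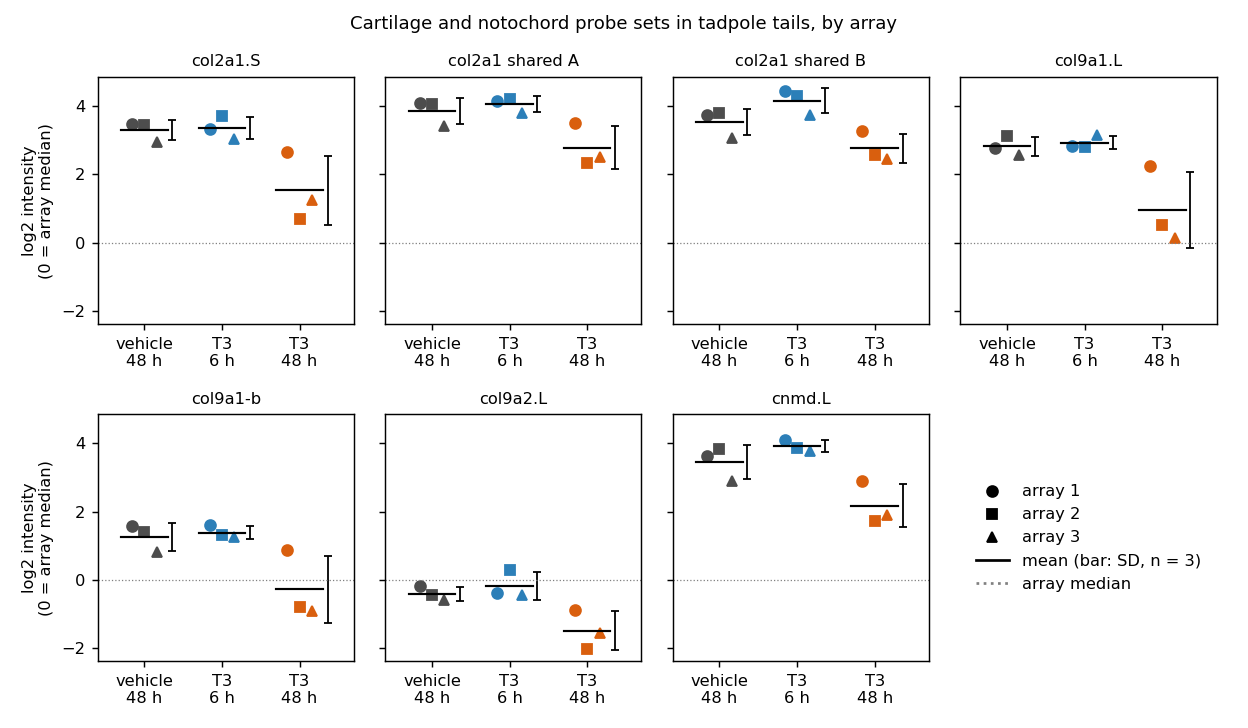
Log2 intensity relative to the array median (vertical axis) of each of the 7 probe sets in vehicle, T3 6 h and T3 48 h tails. Points are arrays (circle 1, square 2, triangle 3), the line is the group mean and the bar beside it the SD over 3 arrays; T3 48 h array 1 is the highest of its group in all 7 panels.

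Against vehicle, the median log2 change of the 6 tested members after 48 h of T3 was -1.41, beside -0.05 for all tested probe sets. Of all tested probe sets 6.04% were called lower and 4.94% higher, 11.0% in all. For 3 of the 6 tested members the T3 48 h arrays were all below the vehicle arrays, beside 19.7% of all tested probe sets. For cnmd.L, 1 of these 3, the gap was only 0.0047. The arrays of col9a2.L, which was not in the tested set, did not overlap either. Since the members were chosen with earlier results known, these counts describe them and are not independent evidence of their direction.

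The calls against vehicle depended on single arrays and on the fit. Leaving out 1 array at a time, all 6 tested members were called when T3 48 h array 1 was dropped. That fit called 1011 of all 8123 tested probe sets lower, beside 491 with all 9 arrays. The number of members called was 0 when vehicle array 1 or 2, or T3 48 h array 2 or 3, was dropped. Those fits called 124 to 162 of all tested probe sets lower. The number of members was 2 when vehicle array 3 was dropped, and 3 when any 1 of the T3 6 h arrays was. Of all 8123 tested probe sets, 168 were called lower without vehicle array 3, and 335 to 447 without a T3 6 h array. No member was called in the fit without a filter, which called 297 of 15491 probe sets lower. There the 5 members called in the main fit had an adjusted p between 0.0513 and 0.0743 in limma. With only the vehicle and T3 48 h arrays no member was called either, and 261 of 8123 probe sets were called lower. The adjusted p of these 5 members in limma was then between 0.0576 and 0.0840. In each of the 9 fits that left out 1 array, all 7 changes against vehicle at 48 h were negative. Dropping a T3 6 h array cannot alter these changes, the fits share most arrays, and the members followed each other across arrays. This count is therefore a description, and the share of all probe sets that kept their sign was not computed.

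**Figure D2:**
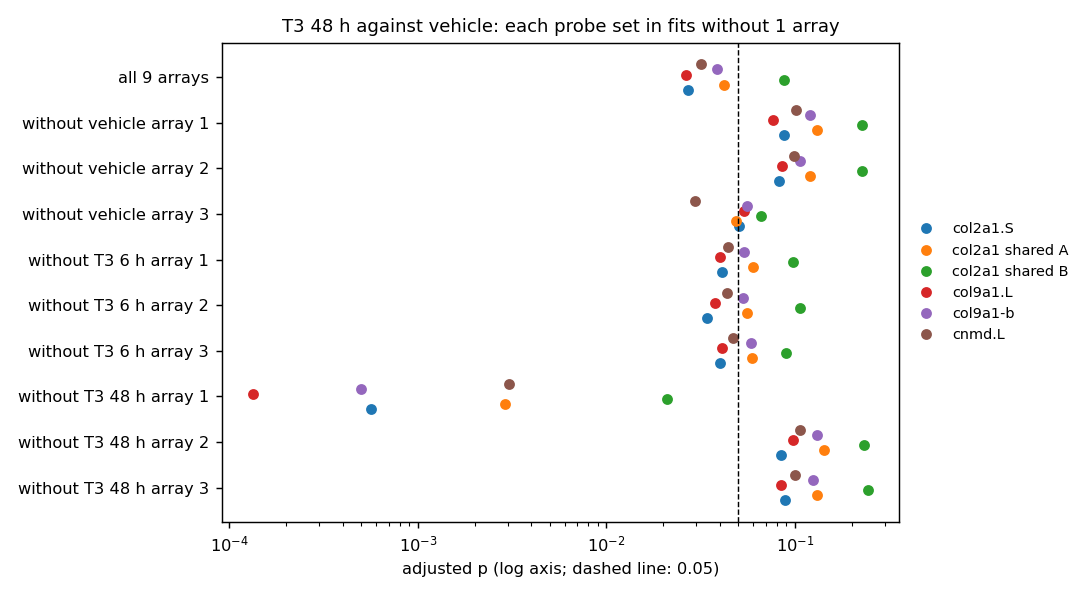
Adjusted p (log axis) of the 6 tested probe sets for T3 48 h against vehicle, with all 9 arrays and with each array left out; the dashed line is the threshold of 0.05. All 6 points lie below the threshold without T3 48 h array 1, and none does without vehicle array 1 or 2 or without T3 48 h array 2 or 3.

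The T3 48 h arrays differed from each other more than those of the other groups. For col9a1.L the SD over the arrays was 1.11 after 48 h, 0.29 in vehicle and 0.18 after 6 h, and for col2a1.S it was 1.01, 0.30 and 0.33. T3 48 h array 1 was the highest of its group in 7 of 7 members, and vehicle array 3 the lowest of its group in 7 of 7. Leaving out T3 48 h array 1 therefore makes every member's change against vehicle more negative. Without T3 48 h array 1 the changes against vehicle were -2.49 for col9a1.L, -2.32 for col2a1.S, -2.11 for col9a1-b, -1.64 for cnmd.L, and -1.44 and -1.02 for shared probe sets A and B. The change of col9a2.L was then -1.37 (adjusted p = 0.0101 in limma).

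Genes that answer T3 were read on the same arrays. The membrane protease gene fap.L lay at 5.02, 6.19 and 5.68 on T3 48 h arrays 1, 2 and 3, and between 0.72 and 0.84 in vehicle. The stromelysin mmp11.L lay at 2.81, 3.50 and 3.68 after 48 h, and the hormone-inactivating deiodinase dio3.L at 3.76, 4.47 and 4.85. T3 48 h array 1 was the lowest of its group for these 3 genes, as for thibz.L (-0.14, 2.69 and 1.62), a leucine zipper gene induced by T3. The probe set of thibz.L was below the level filter, as were those of klf9, also chosen as a T3 response gene. Without a filter, klf9.L was not called at 6 h (0.50 ± 0.21 SE, adjusted p = 0.425 in limma) or 48 h (0.44 ± 0.21, adjusted p = 0.273). The probe set of klf9-b was at -0.03 ± 0.05 after 48 h and not called. On the first principal component of all tested probe sets, with 47.2% of the variance, T3 48 h arrays 1, 2 and 3 scored 15.2, 38.8 and 30.6, and the other 6 arrays between -16.6 and -11.3. Whether array 1 holds less affected tails was not tested.

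After 6 h of T3, no member was called (0 of 6 in limma with all 9 arrays, beside 0.222% of all tested probe sets in either direction). Shared probe set B was the member with an unadjusted p under 0.05, beside 1270 of all 8123 probe sets. Its change was 0.62 ± 0.27, and its adjusted p was 0.304. The changes of the others were 0.46 ± 0.31 for cnmd.L, 0.23 ± 0.29 for col9a2.L and 0.20 ± 0.29 for shared probe set A (SE). They were 0.13 ± 0.41 for col9a1-b, 0.11 ± 0.43 for col9a1.L and 0.06 ± 0.41 for col2a1.S. Each SE uses a spread pooled over all 9 arrays, those of T3 48 h included. The 95% intervals allow a 6 h change of -0.85 to 0.98 for col2a1.S and of -0.23 to 1.16 for cnmd.L. With only the 2 groups compared, the SE was 0.21 for col2a1.S and 0.23 for cnmd.L. Neither was called there (adjusted p = 0.890 and 0.325 in limma), and whether either changed is not settled. All 7 values were positive. Without vehicle array 3, the values of col2a1.S, shared probe set A, col9a1.L and col9a1-b were negative, and without T3 6 h array 2 those of col2a1.S and col9a2.L were. That of col2a1.S was also negative with array weights.

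Comparing 48 h with 6 h of T3, all 6 tested members were called lower in limma, where 11.9% of all tested probe sets were called lower, 7.51% higher and 19.4% in either direction. The members' median was -1.70, beside -0.06 for all tested probe sets. The changes were -1.96 ± 0.43 for col9a1.L (SE, adjusted p = 0.0123), -1.83 ± 0.41 for col2a1.S (adjusted p = 0.0134) and -1.74 ± 0.31 for cnmd.L (adjusted p = 0.00543). They were -1.67 ± 0.41 for col9a1-b (adjusted p = 0.0185), -1.39 ± 0.27 for shared probe set B (adjusted p = 0.00715) and -1.29 ± 0.29 for shared probe set A (adjusted p = 0.0142). For col9a2.L the fit without a filter gave -1.30 ± 0.29 (adjusted p = 0.0238), a fit in which 5.08% of probe sets were called lower.

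In this comparison the arrays of both groups did not overlap for any of the 6 tested members, beside 23.0% of all tested probe sets in that direction. Those of col9a2.L did not overlap either. The gap between the groups was widest for cnmd.L, at 0.87, and narrowest for shared probe set A, at 0.31. Of the 6 tested members, col2a1.S, shared probe set B, col9a1.L and cnmd.L were called in all 9 fits that left out 1 array. Shared probe set A was not called without T3 6 h array 1 (adjusted p = 0.0504) or T3 48 h array 3 (0.0541), and col9a1-b without T3 6 h array 1 (0.0652) or T3 48 h array 2 (0.0639) or 3 (0.0682). Both contrasts of the T3 48 h arrays use the same 3 arrays, and tails of T3 48 h and T3 6 h also differ in time in the container.

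**Figure D3:**
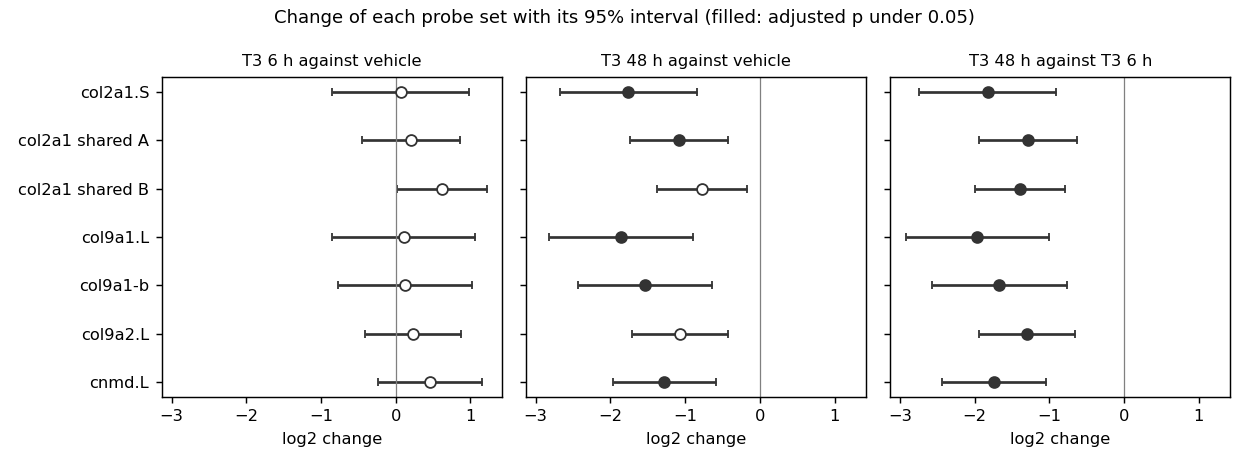
Log2 change of each of the 7 probe sets with its 95% confidence interval in the 3 comparisons; filled points had an adjusted p under 0.05, and col9a2.L comes from the fit without a filter. No point is filled at 6 h, 5 are filled for T3 48 h against vehicle, and all 7 are filled for T3 48 h against T3 6 h.

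In level, then, the order of the group means was T3 6 h, vehicle, T3 48 h for all 7 probe sets. The first pair in that order was not called different for any member, and the T3 6 h and T3 48 h levels were called different for all 7, with the filter or, for col9a2.L, without it. The call of col9a2.L was made in 5 of the 9 fits without 1 array, and lost without T3 6 h array 1 (adjusted p = 0.0557 in limma) or 2 (0.0628), T3 48 h array 2 (0.0563) or 3 (0.0763), and with only the T3 6 h and T3 48 h arrays (0.0744).

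Across the 9 arrays the members followed each other. The Pearson correlation between pairs of tested members was between 0.85 and 0.98 over 15 pairs, and each member correlated with the mean of the 6 centred profiles at 0.93 to 0.99, col9a2.L included at 0.94. These values are descriptions without a test, since the arrays share the group differences and the members enter their own mean. Among the 5566 other tested probe sets with 1 gene, those most like the mean profile were pcbd2.L (r = 0.976), ccnk.L (0.970), f11r.S (0.968), ndufa4.S (0.967), LOC495071 (0.967), pcmt1.L (0.966), the keratin krt62.L (0.966) and klhdc3.L (0.965). After 48 h, krt62.L changed by -1.34 ± 0.20, from 7.72 in vehicle to 6.39, whereas the other 7 had changes from -0.70 (LOC495071) to -0.40 (ndufa4.S). Of 8117 other tested probe sets, 182 had an r over 0.9.

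Of 34 listed partners of these collagens in cartilage and notochord matrix, 10 had a probe set with 1 gene, and 7 probe sets were tested. After 48 h of T3 the proteoglycan versican, vcan.L, fell by 0.69 (SE 0.19, adjusted p = 0.0456 in limma), and the other 6 were not called. Of all tested probe sets, 6.04% were called lower. The list's median was -0.53, with thrombospondin probe sets at -0.71 (thbs4.L), -0.57 (thbs3.L) and -0.53 (thbs4.S) and the matrilin matn4.L at 0.82. Between 6 h and 48 h of T3, matn4.L rose by 1.29 ± 0.32 (adjusted p = 0.0200) and thbs3.L fell by 0.74 (SE 0.21, adjusted p = 0.0319). Of all tested probe sets, 7.51% were called higher there and 11.9% lower. Of the 9 fits without 1 array, 6 called matn4.L between these times (not those without T3 6 h array 3 or T3 48 h array 2 or 3) and 5 called thbs3.L (not those without T3 6 h array 1 or 3 or T3 48 h array 2 or 3). Against vehicle vcan.L was called in 1 of the 9 fits, the one without T3 48 h array 1, and 0 to 1 partner was called higher and 0 to 3 lower. At 6 h 0 of 7 were called in limma, with 2 at an unadjusted p under 0.05.

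Regulators of cartilage and notochord were mostly dim. Of 38 listed, 19 had a probe set, 24 in number, and sox9.S, the transcription factor that drives col2a1 in vertebrate cartilage, was the single one tested. It lay at 0.42, 0.99 and 0.52 in vehicle, at -0.38, 0.27 and -0.05 after 6 h, and at 0.44, 0.10 and 0.49 after 48 h. Its T3 6 h arrays were all below its vehicle arrays, and its levels in vehicle and after 48 h overlapped. Neither change against vehicle was called, although that at 6 h had an unadjusted p under 0.05. The changes were -0.70 ± 0.21 at 6 h (adjusted p = 0.165 in limma) and -0.30 ± 0.21 at 48 h (adjusted p = 0.366).

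In the fit without a filter, the signalling gene shh.L, which the notochord and floor plate express in vertebrate embryos, lay at -0.68, -0.48 and -0.46 in vehicle and at -1.02, -1.51 and -1.18 after 48 h. It fell by 0.69 (SE 0.15, adjusted p = 0.0352), in a fit where 1.92% of probe sets were called lower. The fall was not called without vehicle array 1, 2 or 3 (adjusted p = 0.0806, 0.113 and 0.102), T3 6 h array 1 (0.0557) or T3 48 h array 2 or 3 (0.0839 and 0.0875), or with the replicate block (0.0561). All its values were below the array median. The notochord transcription factor tbxt.S was between -2.83 and -2.68 on all 9 arrays. Besides shh.L, no regulator probe set below the filter was called in limma at 48 h against vehicle. The changes of these others ran from -0.34 (foxa1.S) to 0.29 (runx1.L).

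These levels bear on the name given to the genes. Of 8 probe sets of notochord markers, 6 were below the array median on all arrays of each group, tbxt.S, shh.L and both not homeologs among them. Their summed intensity was 13.4 to 14.7 times the array median in vehicle , 13.2 to 14.5 after 6 h and 11.4 to 14.9 after 48 h, and the brightest, cav1.L, is also used by other cell types. Of 16 listed chondrocyte markers only 3 had a probe set with 1 gene, and matn1.L was below the median on all arrays. Their sum was 2.50 to 3.43 in vehicle, 1.79 to 2.32 after 6 h and 2.85 to 4.02 after 48 h. The name of the members thus rests on their gene symbols, and few of the markers that could be read lay above the array median. Markers without a probe set were not read, and levels of different probe sets are not comparable. The arrays do not place the members' transcripts in either cell type.

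Markers of other cell types were read on the same arrays. Of all tested probe sets, 4.94% were called higher and 6.04% lower after 48 h against vehicle. Between 6 h and 48 h of T3 these shares were 7.51% and 11.9%, so single calls in a list are near them. An unadjusted p under 0.05 in limma was held by 1270 of all 8123 tested probe sets at 6 h and 2450 at 48 h against vehicle. Between 6 h and 48 h of T3 it was held by 2793. Such counts in any list here are to be read beside these. Fits without 1 array are not given for these markers. Muscle, the bulk of the tail, had 17 of 18 probe sets above the array median on every array, with a sum of 6181 to 6379 in vehicle and 5892 to 6786 after 48 h, and after 48 h 0 of 18 were called in limma or had an unadjusted p under 0.05. Of 17 tested epidermal marker probe sets, 6 were called lower after 48 h. Among them was krt12.4.L at -3.15, a size that rests on a T3 48 h mean of -1.89, below the array median. The called krt12.4.S (-2.38) and upk1b.S (-1.51) also had a T3 48 h mean below it. With means above it in both groups, upk3a.L was called at -1.25, upk1b.L at -1.08 and krt19.L at -0.59. The other 11 were not called and lay between -1.53 (krt18.1.S) and 0.01 (krt19.S), with epcam.S at -0.27 and epcam.L at -0.05. The summed intensity of the epidermal markers was 181 to 260 after 48 h beside 333 to 375 after 6 h and 263 to 362 in vehicle. Fibroblast markers, with type I and III collagen among them, had 0 of 7 called after 48 h in limma, none at an unadjusted p under 0.05 either, and overlapped in sum (407 to 525 beside 409 to 547). Of 12 neural probe sets, 1 was higher and 2 were lower after 48 h, with a sum of 86.3 to 104 beside 90.0 to 106 in vehicle. Erythroid markers summed to 307 to 374 in vehicle, 431 to 774 after 6 h and 339 to 597 after 48 h, and leukocyte markers to 42.8 to 55.3, 46.3 to 50.1 and 37.1 to 94.0, with 0 of 5 and 0 of 7 called in limma at either time against vehicle (4 and 0 at an unadjusted p under 0.05 at 6 h, 2 and 1 at 48 h). Between 6 h and 48 h of T3, where all 6 tested members were called lower, 9 of 17 epidermal probe sets were called lower (median -0.94), 2 of 7 fibroblast probe sets higher (both of pdgfra.L, a growth factor receptor, median of the list 0.56), 1 of 18 muscle probe sets lower, and 1 of 12 neural probe sets higher and 2 lower. Of the erythroid and leukocyte markers 0 of 5 and 0 of 7 were called there in limma, with 1 and 2 at an unadjusted p under 0.05. Against vehicle the pdgfra.L probe sets were at -0.60 and -0.27 at 6 h and at 0.11 and 0.29 at 48 h, none called. The part of these shifts in the members' values was not tested.

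Collagens outside cartilage had smaller changes than the members in 7 of 8 tested probe sets. Of the 8, col18a1.S, a basement membrane collagen, was called lower after 48 h, by 0.58 (SE 0.15, adjusted p = 0.0381 in limma), beside 6.04% of all tested probe sets. The list's median was -0.13. In the fits without 1 array, 0 to 2 were called lower, col18a1.S in 2 of the 9. The type I collagens of skin and connective tissue were at -0.23 and 0.28 (col1a1.S, by 2 probe sets) and -0.03 (col1a2.L), and the tested probe set of col3a1.S at -0.02, none of them called. The probe set of col6a2.L was at -1.11 ± 0.32 (adjusted p = 0.0521). From 6 h to 48 h, col6a1.L rose by 0.70 ± 0.13 (adjusted p = 0.00686) and was called in all 9 fits without 1 array. Against vehicle col6a1.L was at -0.52 at 6 h and 0.18 at 48 h, neither of them called. At 6 h all 8 changes were negative, with a median of -0.43 and 0 called in limma (5 at an unadjusted p under 0.05), while the 6 tested members were all positive. The difference between the lists was not tested.

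Of 18 tested probe sets for enzymes and chaperones of collagen synthesis and assembly, after 48 h 1 rose and 1 fell, with a median of 0.12, beside 4.94% of all tested probe sets called higher and 6.04% lower. Higher was a probe set of p4hb.L, a subunit of prolyl 4-hydroxylase (0.45 ± 0.09, adjusted p = 0.0193 in limma), whose other probe set was at 0.42 ± 0.37. Lower was pcolce2.L, an enhancer of procollagen processing, which fell by 0.99 (SE 0.27, adjusted p = 0.0402). At 6 h 0 of 18 were called in limma, with 3 at an unadjusted p under 0.05. From 6 h to 48 h, 5 of 18 were called higher, beside 7.51% of all tested probe sets. These were the collagen chaperone serpinh1.S (1.12 ± 0.35), the prolyl isomerases fkbp14.L (0.63), ppib.L (0.54) and ppib.S (0.46), and creb3l2.L (0.54), a factor that in mouse promotes secretion of cartilage matrix. None of these 5 was called against vehicle at either time, and their changes at 6 h were all negative. Against vehicle serpinh1.S was at -0.74 at 6 h and 0.38 at 48 h. In the fits without 1 array, 0 to 4 of the 18 were called higher between these times, ppib.L in 8 of the 9 fits, fkbp14.L in 7, creb3l2.L in 5, and serpinh1.S and ppib.S in 1 each. Against vehicle p4hb.L was called in 4 of the 9 and pcolce2.L in 1.

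Among collagen receptors, with 9 tested probe sets, the integrin beta-1 genes itgb1.L and itgb1.S rose after 48 h by 0.73 ± 0.18 and 0.65 ± 0.17 (adjusted p = 0.0323 and 0.0363 in limma). The discoidin receptor ddr1.L, a kinase that binds collagen, fell by 0.75 (SE 0.20, adjusted p = 0.0398). Of all tested probe sets, 4.94% were called higher and 6.04% lower. A second, dimmer probe set of itgb1.L was at 0.81 ± 0.37 and not called. Between 6 h and 48 h both called integrin probe sets were again called higher. Of 3 probe sets of sdc4.L, a heparan sulfate proteoglycan of the cell surface, 1 was called lower at -0.51. The others were at -0.52 (adjusted p = 0.0516 in limma) and -0.31, not called. Of all tested probe sets, 7.51% were called higher there and 11.9% lower. Leaving out 1 array gave 0 to 3 higher and 0 to 1 lower against vehicle, and 0 to 1 higher and 0 to 1 lower between 6 h and 48 h. In that later comparison itgb1.L was called in 5 of these 9 fits, sdc4.L in 3 and itgb1.S in 1, and no fit called both integrin probe sets. Against vehicle itgb1.L and itgb1.S were each called in 4 of the 9 and ddr1.L in 3.

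Enzymes that degrade matrix, and their inhibitors, were read on the same arrays. Of 19 tested probe sets, 10 were called higher after 48 h and mmp28.L was called lower at -0.52, with a median of 0.58. Of all tested probe sets, 4.94% were called higher and 6.04% lower. The fits without 1 array gave 6 to 13 of the 19 higher. The 6 with the largest change were fap.L (4.85 ± 0.26), the collagenase probe sets mmp13l.S (4.75 ± 0.40) and mmp13l.L (2.42 ± 0.31), mmp11.L (2.38 ± 0.25), and the inhibitor genes timp2.S (1.70 ± 0.26) and timp2.L (1.23 ± 0.18). At 6 h 0 of 19 were called in limma, with 4 at an unadjusted p under 0.05. Between 6 h and 48 h of T3, 9 were called higher, beside 7.51% of all tested probe sets, where 11.9% were called lower. The gene timp3.L, an inhibitor of proteases of cartilage matrix, was called lower at -0.74 by 1 of its probe sets, with the other tested one at 0.03.

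**Figure D4:**
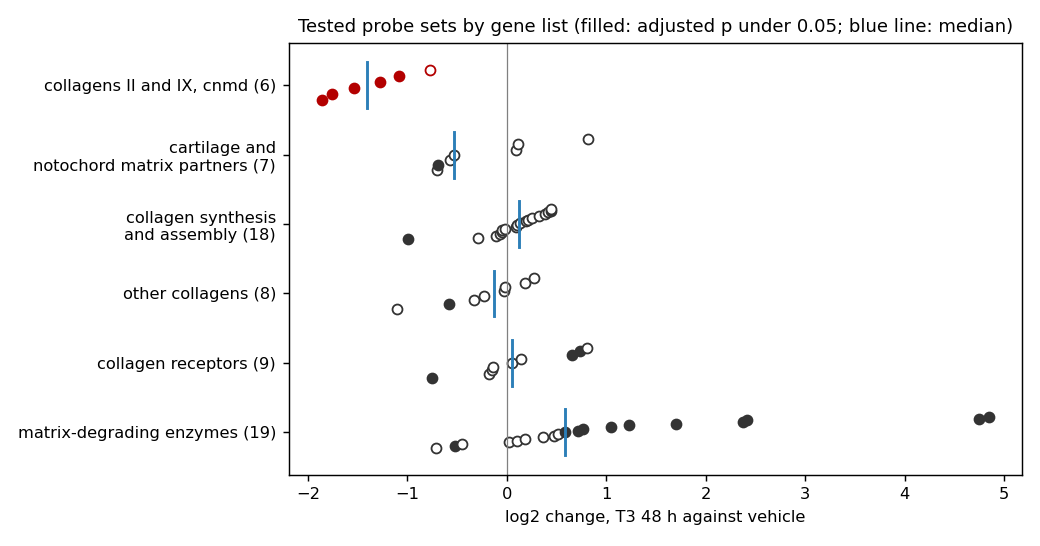
Log2 change for T3 48 h against vehicle of the tested probe sets of the members (red) and of 5 related gene lists, with the number of probe sets in parentheses; filled points had an adjusted p under 0.05 and the blue lines are medians. The members' median is -1.41, that of the other collagens -0.13 and that of matrix-degrading enzymes 0.58.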

How the data were processed

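RNA from 9 pools of tails was read on Affymetrix Xenopus laevis arrays. The authors deposited 1 linear intensity per probe set and array, made with GCRMA per the submitters' processing notes; its version and other steps are not given in the sources used here. The median of every array's deposited intensity is 1, which means that the values are relative to the array median. No detection calls or scan dates were used here, and the number of arrays limits precision. The labels do not say whether pools came from separate clutches, and p-values cover the variation among the pools, which may be technical.

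Of 15611 probe sets, 120 controls were left out. The log2 of each intensity was fitted for all 9 arrays by group in limma 3.58.1 (R 4.3.3), using an intensity trend in eBayes, over 8123 probe sets at or above the array median (log2 0) in at least 3 arrays. The filter can keep a probe set through 1 group alone. Tests were two-sided with Benjamini-Hochberg adjustment. The fit was checked on simulated data with independent noise of equal spread in the 3 groups. That check does not cover the larger spread of the T3 48 h arrays. Names came from the platform annotation: of 15491 probe sets, 9304 had 1 gene, 195 several and 5992 none listed, and 9227 matched RefSeq (assembly Xenopus_laevis_v10.1), which changed 2 symbols. Listed genes were named where called, up to 6 a list by size of change. The members and lists were chosen with earlier results of these data known. Arrays with the same replicate number were not treated as pairs in the main fit. Over all tested probe sets their deviations correlated at -0.13 to 0.10. Arrays of different number were not compared, so this does not show whether the numbers pair arrays. Among the members, array 3 was the lowest of its group for 7 of 7 in vehicle, 6 of 7 after 6 h and 3 of 7 after 48 h. Sequences and positions are not used here.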

Additional observations from a re-analysis of the deposited data

Results flagged for a closer look

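The change against vehicle differed between 6 h and 48 h of T3 for all 6 tested members in limma. Since the vehicle arrays are shared, this is the comparison of T3 48 h with T3 6 h given above and not a further test. The log2 differences were -1.96 for col9a1.L, -1.83 for col2a1.S, -1.74 for cnmd.L, -1.67 for col9a1-b, -1.39 for col2a1 shared probe set B and -1.29 for shared probe set A. Tails of the 2 times also differ in hours in the container, which these arrays do not separate from T3.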

How the results depend on the processing

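Of 6 tested cartilage probe sets, 5 were called for T3 48 h against vehicle with all arrays, 4 under quantile normalization, 5 with centring, with log2(value + 1) or without an intensity trend, 6 with array weights, 6 with the replicate block, 0 without a filter, 0 with only the 2 groups compared, and 0 to 6 without 1 array. Under the stricter filter (log2 2) 4 of 5 tested were called. Of all 8123 tested probe sets, 491 were called lower with all arrays, 436 under quantile normalization and 408 with centring. The number was 477 with log2(value + 1), 486 without an intensity trend, 1087 with array weights and 387 with the replicate block. It was 261 with only the 2 groups compared. Without a filter 297 of 15491 were called lower, and under the stricter filter 302 of 3944. Counting only probe sets listed with 1 gene, an alternative chosen after seeing the data, gave 4 of 4. For T3 48 h against T3 6 h the 6 calls held under these settings (5 of 5 under the stricter filter, 7 of 7 without a filter, 4 of 4 with 1 gene) and were 4 to 6 without 1 array. For T3 6 h against vehicle the count was 0 throughout, and col2a1.S was at -0.071 with array weights and between -0.11 and 0.22 without 1 array. That range was -0.013 to 0.33 for shared probe set A, -0.026 to 0.26 for col9a1.L, -0.10 to 0.29 for col9a1-b and -0.0056 to 0.35 for col9a2.L, the negative values being those without vehicle array 3, or without T3 6 h array 2 for col2a1.S (-0.11 in both) and col9a2.L.

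Over all probe sets, 18 were called at 6 h, and 1 under quantile normalization, 2 without a filter, 9 under the stricter filter, 547 with array weights, 0 with the replicate block, 66 with only the 2 groups compared and 0 to 99 without 1 array. At 48 h against vehicle 892 were called, 401 higher and 491 lower. The total was 605 (no filter), 538 (stricter filter), 1979 (array weights), 700 (replicate block) and 494 (only the 2 groups compared). It was 256 to 1912 without 1 array. With centring 482 were called higher and 408 lower in this comparison, so which direction has more calls depends on the scaling. For T3 48 h against T3 6 h 1578 were called, 610 higher and 968 lower, and 845 (stricter filter), 2677 (array weights) and 869 to 2093 without 1 array. With centring that split was 758 higher and 748 lower. The causes were not tested. The dimmest members, col9a1-b and col9a2.L, carry the least certain folds, since both had means below the array median after 48 h.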
